A study of Homo sapiens with 8 samples.

Results

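Of the promoter-proximal regions that were accessible under every condition in MCF10A cells, 1558 of 31968 (4.87%) had a weaker peak after 72 h of TGFβ1 than the change of the typical such region would give. Regions at the epithelial genes CLDN7, KRT8, CRB3, PPL, OCLN, EPCAM, EHF, GATA3 and OVOL2 were among them. Other regions of epithelial gene lists were strengthened. Of 96 regions at junction genes, 12 were weakened (12.5%) and 14 strengthened. Of 34 at keratin genes, 3 were weakened (8.82%) and 8 strengthened. Of 44 at 14 mammary epithelial marker genes, 2 were weakened (4.55%), at EPCAM and KRT8, and 9 strengthened. Over all 31968 regions, 4.87% were weakened and 16.1% strengthened. The regions were chosen by the peak AUC, the area under the significance curve that the peak caller Genrich gives for each peak. Peaks of the 4 deposited lists that shared at least 1 bp were merged into 126658 regions, 79275 regions held a peak in all 4 lists, and 31968 of those lay within 3 kb of a GENCODE transcription start site (TSS). These are referred to as constitutive promoters. For each, the log2 ratio of the summed AUC at 72 h to that in solvent was taken, the median ratio over all constitutive promoters was subtracted, and regions at -0.5 or less were selected. The 72 h to solvent ratio is therefore what defines the weakened regions and is given below as a description only.

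The study treated MCF10A cells, an immortalised human mammary epithelial line of wild-type genotype, with 5 ng/ml TGFβ1 for 6, 24 or 72 h or with solvent, and profiled open chromatin by ATAC-seq, in which a transposase inserts sequencing adapters into DNA that nucleosomes leave free. All groups shared the same medium, which contained horse serum, EGF, hydrocortisone, cholera toxin and insulin. Each condition had 2 replicates, which the authors pooled for peak calling, so that 1 list per condition was at hand: the spread between replicates could not be measured, and p-values are not reported. The labels put the solvent samples at time 0, whereas the study describes a solvent dish kept for 72 h. The number of reads behind each list is unknown. Of 14 mammary epithelial marker genes, 13 had a solvent peak within 1 kb of the canonical TSS (TP63 had none there), against 1 of 12 markers of other lineages (CD14).

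TGFβ1 is a cytokine that drives mammary epithelial cells through an epithelial-mesenchymal transition (EMT), in which cell junctions, apical polarity and epithelial keratins are given up and matrix and motility genes are switched on. Transcriptional repressors of the SNAIL and ZEB families bind the E-box CACCTG and are known for silencing junction genes, whereas SMAD proteins carry the signal from the TGFβ receptors to the nucleus and act together with AP-1 dimers of JUN and FOS proteins. Promoters that contain CpG islands are usually open in every cell type, while regions poor in CpG close to a TSS often behave like enhancers. The promoter-proximal regions whose peak AUC was lower at 72 h, relative to the typical constitutive promoter, and the motifs they carry are described below. Whether any factor acted through these motifs was not tested.

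The following stretches are shown because they hold the E-box, which was more frequent in the weakened regions (its shares follow below). They come from weakened regions at the junction genes CLDN7, CRB3 and EPCAM, at the keratin gene KRT8 and at FXYD3, which encodes a regulator of the sodium pump. All are on the plus strand of hg38 and lie within 100 bp of the solvent summit. Capitals mark the E-box CACCTG, which reads CAGGTG where the site is on the other strand.
CLDN7, chr17:7262596-7262625: cgaagggacactCACCTGaaccggaagtcg
CLDN7, chr17:7262635-7262664: cccctccttgccCAGGTGaggaggaagaaa
CRB3, chr19:6464112-6464141: ggggtcccgttaCAGGTGcgcccacagcgc
CRB3, chr19:6464170-6464199: ctcagcgaggctCAGGTGcacaagccggaa
CRB3, chr19:6464199-6464228: agtgcgctctccCAGGTGagtgactaaact
EPCAM, chr2:47369271-47369300: cgccaggtcgggCAGGTGtgcgctccgccc
KRT8, chr12:52906452-52906481: gaagagtccctgCACCTGtctcccattatc
KRT8, chr12:52906506-52906535: ggacgtagcacgCACCTGtgggaggttgga
KRT8, chr12:52906623-52906652: aggcagagattcCACCTGcaattacctgat
FXYD3, chr19:35116345-35116374: tggtgaaccacaCAGGTGagcagctggggc
Counted from the canonical TSS with upstream as negative, the matches of CRB3 lay at -145, -87 and -58 bp, those of CLDN7 at -132 and -171 bp, that of EPCAM at -26 bp, those of KRT8 at -1390, -1444 and -1561 bp, and that of FXYD3 at 536 bp.

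The solvent summit with 100 bp on each side is given for 4 weakened regions that differ in what they carry: OVOL2 with a pair of E-boxes, GATA3 with an E-box in an intron, PPL with a C/EBP motif in an intronic region, and LINC02352, one of the strongest weakened regions, with both motifs. Capitals mark the E-box and, in PPL and LINC02352, the C/EBP motif, which was searched as TTACGCAA, TTATGCAA, TTGCGCAA or TTGTGCAA on both strands. C/EBP proteins are leucine zipper activators of epithelial and adipocyte differentiation genes.
OVOL2, chr20:18056446-18056646: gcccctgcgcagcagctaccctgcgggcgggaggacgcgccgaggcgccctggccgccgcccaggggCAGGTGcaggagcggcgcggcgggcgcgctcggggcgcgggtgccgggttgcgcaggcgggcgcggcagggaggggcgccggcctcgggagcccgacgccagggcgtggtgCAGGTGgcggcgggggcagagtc
GATA3, chr10:8059470-8059670: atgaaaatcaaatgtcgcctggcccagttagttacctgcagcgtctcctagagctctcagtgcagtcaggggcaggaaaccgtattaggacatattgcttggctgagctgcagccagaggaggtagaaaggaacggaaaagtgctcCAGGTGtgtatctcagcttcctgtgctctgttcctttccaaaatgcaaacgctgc
PPL, chr16:4935415-4935615: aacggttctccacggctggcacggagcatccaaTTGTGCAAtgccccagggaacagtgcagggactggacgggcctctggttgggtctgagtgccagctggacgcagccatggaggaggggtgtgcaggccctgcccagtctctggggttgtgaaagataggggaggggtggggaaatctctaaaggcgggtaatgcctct
LINC02352, chr15:31214937-31215137: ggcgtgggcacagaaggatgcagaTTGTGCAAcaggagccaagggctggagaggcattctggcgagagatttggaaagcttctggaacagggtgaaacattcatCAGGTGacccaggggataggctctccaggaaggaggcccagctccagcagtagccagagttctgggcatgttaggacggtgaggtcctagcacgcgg

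To see which genes the weakened regions sit at, the 12 regions with the lowest centred 72 h ratio that overlapped a TSS of a protein-coding gene were examined first. CHI3L1, a secreted chitinase-like glycoprotein, had the lowest value, with a solvent AUC of 2436 that stood at 2293 by 6 h, 940 by 24 h and 389 by 72 h of TGFβ1, a centred log2 ratio at 72 h of -2.89. Its region (chr1:203186198-203187290) covered the canonical TSS, and its AUC was still near the solvent level at 6 h. CLDN7, a claudin of tight junctions, had AUCs of 1879, 1904, 1001 and 547 in the same order and a ratio of -2.03, again at the canonical TSS. FXYD3 went from 1593 in solvent to 1867, 1143 and 416, with a ratio of -2.19. In these 3 regions the raw AUC was close to or above solvent at 6 h, and its lower values came at 24 h and 72 h. The median raw log2 ratio of all constitutive promoters was 0.44 at 6 h. The centred 6 h ratios were therefore already -0.53 for CHI3L1, -0.42 for CLDN7 and -0.22 for FXYD3. On that scale CHI3L1 was at -0.5 or less by 6 h.

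KRT8, a keratin of simple epithelia, had AUCs of 790, 906, 284 and 204 and a ratio of -2.20, in a region that overlapped the TSS of an alternative transcript and lay 1149 bp from the canonical one. Its 72 h AUC was just above the lowest AUC the lists hold, 200. ALDH3A1, an aldehyde dehydrogenase, went from 912 to 932, 377 and 260, and AWAT2, a wax ester synthase, from 1105 to 1280, 728 and 318, both at the canonical TSS. The remaining 6 regions overlapped only alternative TSSs, between 8592 bp (PPARGC1A) and 196011 bp (MEIS2) from the canonical ones. They belonged to LGALS8 (ratio -2.57), MEIS2 (-2.49), ARHGAP32 (-2.31), TMEM45A (-2.21), VWCE (-2.18) and PPARGC1A (-2.01). Of the 12 genes, 5 were thus weakened where their canonical transcript starts.

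**Figure D1:**
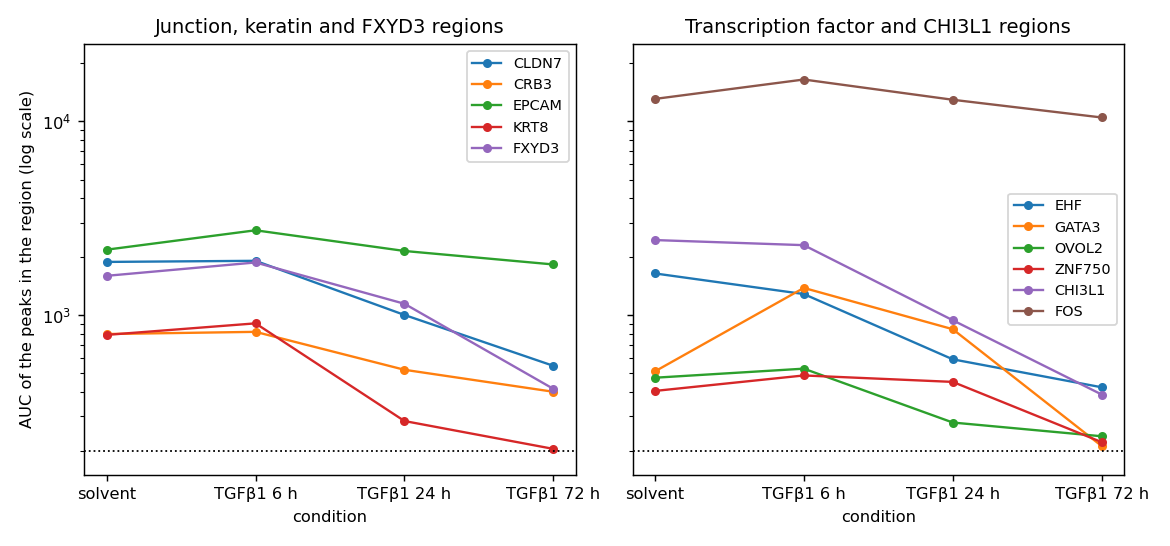
Summed AUC (log scale, no unit) of 11 weakened regions in the solvent list and in the 3 TGFβ1 lists, 1 pooled list per condition, so there is no error bar; the dotted line marks the lowest AUC in any list, 200. Most lines are level or higher at 6 h and lower at 24 h and 72 h. EHF is already lower at 6 h, GATA3 peaks at 6 h, and EPCAM and FOS change least relative to their height.

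The 8 weakened regions with the largest solvent AUC belonged mostly to genes of other roles. FOS, an immediate early gene that encodes an AP-1 subunit, came first, with AUCs of 13019, 16395, 12890 and 10444 in the order solvent, 6 h, 24 h, 72 h (centred 72 h ratio -0.57). FOSB, its close relative, had 8722, 11201, 8758 and 7153 (-0.53). SPRY1, a feedback inhibitor of receptor tyrosine kinase signalling, had 7814, 9234, 7119 and 5748 (-0.69). All 3 had their highest AUC at 6 h and their lowest at 72 h. The others among the 8 strongest were STC2, a secreted glycoprotein hormone (-0.63), ASS1, which makes argininosuccinate in arginine synthesis (-0.70), MAL2, a protein of apical membrane transport (-0.78), RXFP4, a relaxin family receptor (-0.50), and LINC02352 (-0.81). Each of the 8 overlapped a canonical TSS.

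The choice of measure mattered for single regions. The 92 named regions include the 3 just outside the threshold that are described below. When the AUC was divided by the peak width, 46 of the 92 kept their side of -0.5. A region outside that stayed above -0.5 counts as kept. Another 40 went from -0.5 or less to between -0.5 and 0. Among them were FXYD3 (-0.01), both PPL regions (-0.30 and -0.10), EPCAM (-0.21) and FOS (-0.27). The remaining 6 turned, OVOL2 (0.66) and ZNF608 (0.19) among them. Without centring, 51 of the 92 kept their side of -0.5 in the same sense, and 41 that had been at -0.5 or less lay above it.

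At the threshold, the values were continuous. The 3 weakened regions just inside were those of FUT6, EPCAM and PYCR1, and the 3 constitutive promoters just outside were those of ENSG00000213963, Y_RNA and PARD6B. All 6 had a centred ratio of -0.50 when rounded. EPCAM, an epithelial adhesion molecule, had AUCs of 2173, 2736, 2140 and 1823, while PARD6B, just outside, encodes a polarity protein.

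Most weakened regions were modest in size of loss and below average in height. Of the 1558, 824 (52.9%) had a ratio above -0.75, 231 (14.8%) lay between -1.5 and -1, and 39 (2.5%) were at -2 or less. Their median AUC was 747 in the solvent list and 881, 691 and 475 in the successive TGFβ1 lists, against a solvent median of 1262 over all constitutive promoters. The median of the raw log2 ratio to solvent over all constitutive promoters was 0.44, 0.38 and 0.25 in the 6 h, 24 h and 72 h lists, so that the threshold corresponded to a raw ratio of -0.25. The AUC was lower at 72 h than in solvent in all 1558 regions, as the rule requires. At 6 h it was higher than in solvent in 83.5% of them, against 98.4% of all constitutive promoters. Of the 33111 promoter-proximal regions with a solvent peak, 1013 (3.06%) had no 72 h peak, and these are not among the weakened ones, because the rule asks for a peak in every list. Their median solvent AUC was 266.

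Both the width and the height of the peaks were lower. The AUC is the product of the width and the AUC per base, so lower values at 72 h follow in part from the choice of the regions. The median summed peak width was 434 bp in the solvent list and then 470, 400 and 338 bp with time of treatment. The log2 ratio of the width at 72 h to that in solvent had a median of -0.17 (0.05 over all constitutive promoters), and that of the AUC per base had a median of -0.29 (0.18 over all). The median −log10 p at the summit was 8.03 in solvent and 8.33, 7.69 and 6.88 in the same order. The summit itself stayed in place: in 86.5% of the weakened regions the 72 h summit was within 50 bp of the solvent summit, as in 87.0% of the other constitutive promoters.

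To follow when the regions weakened, the same centring was applied at 6 h and 24 h. Both ratios share the solvent list with the rule, so a lower value than over all promoters follows in part from the choice of the regions. At 6 h the median centred ratio was -0.20, and 203 weakened regions (13.0%) were at -0.5 or less, against 1.21% of all constitutive promoters. At 24 h the median was -0.45, and 690 (44.3%) were at -0.5 or less, against 3.27% of all. By first time at -0.5 or less, 203 regions were early, 512 (32.9%) reached it at 24 h and 843 (54.1%) only at 72 h. Of the 203 early regions, 25 were above -0.5 again at 24 h.

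The course classes differed in level as well as in time. The 203 early regions had median AUCs of 826, 695, 548 and 438 in the order solvent, 6 h, 24 h, 72 h. The 512 regions of the 24 h class had 898, 1038, 677 and 526, and the 843 regions of the 72 h class had 635, 828, 735 and 452. The early class was below its solvent level at 6 h by definition, since a centred ratio of -0.5 at that time is a raw ratio below 0. Regions at a canonical protein-coding TSS made up 5.91% of the early, 10.2% of the 24 h and 13.8% of the 72 h class.

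Examples of each course were found among regulators of the epithelial state. EHF, an ETS factor of epithelial cells, was early, with AUCs of 1639, 1283, 591 and 424 in an intronic region 18915 bp from its canonical TSS. OVOL2, a zinc finger repressor that holds down ZEB1, had 475, 529, 279 and 237, and its centred ratio went from -0.29 at 6 h to -1.15 at 24 h. Its peak width was 580 bp in solvent and 162 bp at 72 h, and per base its 72 h ratio turned, as given above. GATA3, a zinc finger factor of luminal mammary cells, had 512, 1380, 845 and 211 in an intronic region 3558 bp from its canonical TSS, that is, a centred ratio of 0.99 at 6 h and -1.53 at 72 h. The 72 h value was -0.56 with the largest single peak in place of the sum and -0.51 per base of peak width. The GATA3 region had the highest 6 h ratio of all 1558 weakened regions. ZNF750, a regulator of keratinocyte differentiation, had 406, 488, 452 and 221, with its lower value at 72 h alone. The 72 h AUCs of OVOL2, GATA3 and ZNF750 were close to the lowest AUC in the lists, 200.

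The ratio of 24 h to 6 h uses neither of the 2 lists that chose the regions. Its centred median was -0.27 in the weakened regions. It was below 0 in 1319 of them (84.7%, 95% Wilson interval 82.8 to 86.4), against 50% of all constitutive promoters by construction, 48.2% of those that were not weakened and 14.3% of the 5134 that were strengthened at 72 h (centred ratio of 0.5 or more). At -0.5 or less were 341 weakened regions (21.9%), against 2.25% of all. The share below 0 was higher in the weakened than in the other promoters in each quartile of solvent AUC: 73.6% against 31.7% in the weakest, 85.3% against 37.5%, 97.0% against 52.7%, and 97.9% against 69.5% in the strongest. With the AUC divided by the peak width, which chose 1648 regions of which 685 were the same, the share was 59.2%. Intervals here and below cover counting error only.

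The order of the AUCs from 6 h to 72 h followed in part from the selection, since the 72 h list chose the regions. The AUC was lower at 24 h than at 6 h and lower again at 72 h in 81.1% of the weakened regions and in 49.2% of the other constitutive promoters. An AUC at 24 h below that at 72 h, that is, a low point before 72 h, was seen in 8.15% of the weakened and 21.4% of the other promoters. Among regions at protein-coding TSSs, the 5 lowest 24 h to 6 h ratios were those of ADGRB2 (-1.65), KRT8 (-1.62), ZNF608 (-1.51), PRPH (-1.26) and TNFAIP2 (-1.25). TNFAIP2, a gene induced by TNF, had AUCs of 1225, 1673, 675 and 1010, so its lowest point was at 24 h. The 5 highest were RIPOR2 (0.52), NFIX (0.50), ARHGAP4 (0.46), UBE2F (0.44) and BBX (0.43), whose AUCs were highest at 24 h and then lowest at 72 h; all 5 had solvent AUCs between 291 and 403.

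The name promoter holds for the weakened regions only in the wide sense of lying within 3 kb of a TSS. Only 467 (interval 27.8 to 32.3%) overlapped a TSS of any gene, against 53.5% of the other constitutive promoters, and 180 (11.6%, interval 10.1 to 13.2) overlapped the canonical TSS of a protein-coding gene, against 36.2%. The solvent summit lay in an intron in 60.0% of them (46.3% of the others), in an exon in 22.1% (30.8%) and between genes in 17.8% (22.9%). A protein-coding TSS was within 3 kb of 76.1% of the weakened and 77.5% of the other promoters. A CpG ratio (observed over expected CpG) of 0.6 or more, as in CpG islands, was found in 268 (17.2%, interval 15.4 to 19.2) against 40.7%. The median GC content was 51.9%, and 55.69% over all constitutive promoters. The strengthened regions lay further in the same direction, with 5.63% at a canonical protein-coding TSS and 6.19% with the high CpG ratio.

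Peak height bore on both properties. The weakened regions made up 6.49%, 7.66%, 4.17% and 1.18% of the constitutive promoters from the weakest to the strongest quartile of solvent AUC. In the weakest quartile, 21.4% of the weakened and 20.0% of the other regions overlapped a TSS, and the high CpG ratio was found in 18.7% and 11.3%. In the strongest quartile these shares were 63.8% and 91.5% for a TSS and 25.5% and 78.7% for the CpG ratio. The lower CpG content of the weakened regions was thus seen in the upper 3 quartiles of AUC and not in the weakest.

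Most genes with a weakened region also had a constitutive region that was not weakened. The 1558 regions lay within 3 kb of a TSS of 1183 protein-coding genes, of 15000 with a constitutive promoter region, and 106 of the genes had more than 1. At 1024 of the genes another constitutive region was not weakened, and at 255 another was strengthened. Over all constitutive promoters 4.87% were weakened and 16.1% strengthened, so a further region that was not weakened would be usual at any gene. For 800 genes the weakened region lay off a canonical TSS that itself had a constitutive region. In these canonical regions the median centred 72 h ratio was -0.11, and 27 (3.38%) were weakened themselves, against 1.48% of the 12482 canonical TSSs with a constitutive region. CAMK2B, DGAT1, ESPN, POLR1A, SORBS2 and the gene ENSG00000250644 had 3 weakened regions each, the most at any gene.

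Among 23 motifs searched within 100 bp of the solvent summit, the E-box had the largest excess in percentage points. CACCTG, on either strand, was present in 501 weakened regions (32.2%, interval 29.9 to 34.5), against 18.3% (17.8 to 18.7) of the other constitutive promoters, 16.1% of the strengthened and 18.9% of all. Of its 625 matches in weakened regions, 29 (4.64%) overlapped a match of another motif searched, most often that of CTCF. More than 1 match was found in 6.61% of the weakened and 2.4% of the other promoters. Where there was a match, the nearest one lay a median of 40 bp from the summit, and 44 bp in the other promoters. The E-box of MYC and USF, CACGTG, which differs in its centre, was found in 6.03% of the weakened and 5.04% of the other promoters.

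The higher share of CACCTG was present at every peak height and at every base composition examined. From the weakest to the strongest quartile of solvent AUC it was 28.7% against 20.2% of the other promoters, 31.0% against 20.8%, 36.9% against 18.2% and 41.5% against 14.1%. By GC content of the surrounding sequence it was 22.1% against 13.4% up to 45% GC, 30.7% against 21.5% up to 55%, 41.8% against 21.5% up to 65%, and 37.7% against 15.5% above that. Regions over a TSS had it in 34.0% against 15.6%, and those off a TSS in 31.3% against 21.3%. In a window of 200 bp on each side of the summit it was 48.5% against 31.5%. In each of these splits the gap was wider in the strong, the GC-rich and the TSS regions.

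The E-box share also followed the course. It was 47.3% (interval 40.5 to 54.1) in the 203 regions that were early, 33.4% (29.5 to 37.6) in the 24 h class and 27.8% (24.8 to 30.9) in the 72 h class. By size of the loss it was 35.4% in the 99 regions at -1.5 or less and 31.8% in the 824 regions above -0.75, with overlapping intervals. It was 24.7% (23.1 to 26.3) in the 2684 promoters between -0.5 and -0.25, which the rule left out, and 17.4% between -0.25 and 0. In the contrast of 24 h with 6 h, which did not choose the regions, it was 28.7% (25.5 to 32.1) in the 718 promoters at -0.5 or less and 18.7% in all others. In the 377 of those 718 that were not weakened at 72 h it was 23.6% (19.6 to 28.1).

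**Figure D2:**
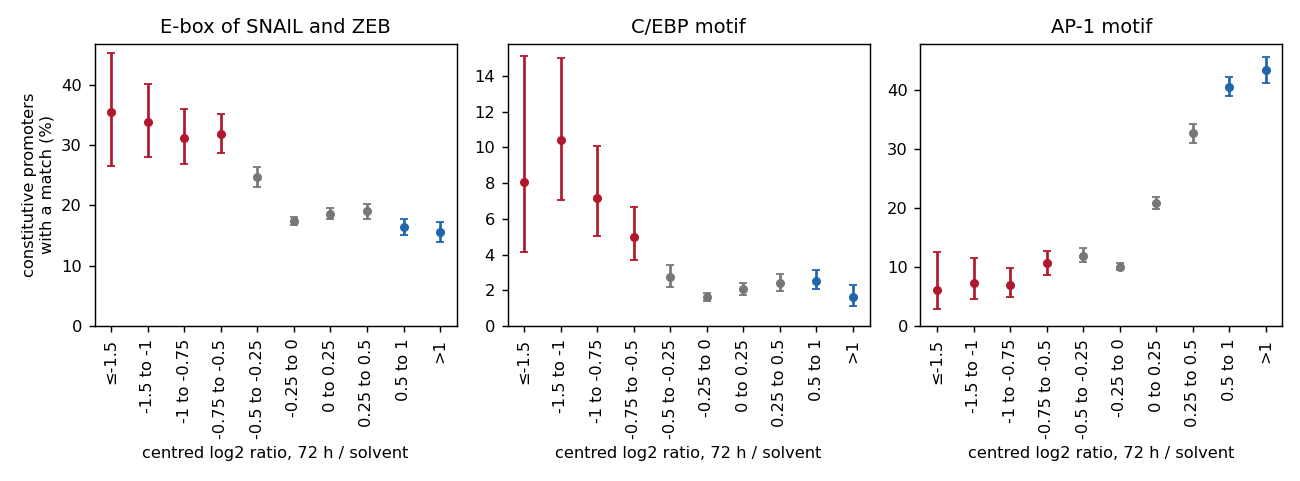
Percent of constitutive promoters with a match of the E-box of SNAIL and ZEB, the C/EBP motif or the AP-1 motif within 100 bp of the solvent summit, by centred log2 ratio of 72 h to solvent (10 steps); error bars are 95% Wilson intervals, red marks weakened and blue strengthened regions. The E-box and C/EBP shares are highest in the weakened steps (35.4% and 8.08% at the lowest), and the AP-1 share rises to 43.4% in the most strengthened step.

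C/EBP motifs were more frequent and AP-1 motifs less frequent in the weakened regions than in the other promoters. A C/EBP motif was found in 102 weakened regions (6.55%, interval 5.42 to 7.89), against 2.00% of the other promoters and 2.22% of all. Its share was highest in AT-rich regions, 12.9% against 4.50% up to 45% GC, and none of the 207 weakened regions above 65% GC held it, which allows a share of up to 1.82%. Either motif, E-box or C/EBP, was present in 37.3% of the weakened regions and 19.9% of the others, and 22 regions held both. The AP-1 motif (TGACTCA or TGAGTCA) was found in 138 weakened regions (8.86%, interval 7.55 to 10.4), against 20.8% of the other promoters, 41.6% of the strengthened and 20.2% of all. Promoters that were nearly level at 72 h held it about as rarely as the weakened ones, with 11.9% between -0.5 and -0.25 and 10.0% between -0.25 and 0, and the share was 20.8% to 43.4% in the steps above 0. The lower share against the other promoters thus came mostly from those with positive ratios. In the strongest quartile of AUC, where AP-1 motifs were sparse in all promoters, its share was 11.7% of 94 weakened regions against 9.28%.

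Several other motifs differed in share. The GC box of SP and KLF factors was present in 21.4% of the weakened and 35.4% of the other promoters, and the ETS motif in 0.706% and 2.82%, both of which are typical of CpG island promoters. The GC box had the largest difference of all motifs in percentage points. The CTCF motif was found in 6.03% and 10.7%, and the TEAD motif, which was more frequent in the strengthened regions (18.4%), in 187 weakened regions and in 11.7% of the others. The p53 family motif was found in 8.02% and 5.80%, and that of GRHL factors, which maintain epithelial junction genes, in 1.80% and 1.07%. The SMAD palindrome was rare in both, with 0.770% and 0.753%.

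Genes were then read by lists of known role. Among the regions at epithelial transcription factors and splicing regulators, 8 of 51 (15.7%) were weakened, at EHF, ELF3, ESRP2, GATA3, KLF4, OVOL2 and ZNF750, against 4.87% of all constitutive promoters; 4 of the 51 were strengthened. Among the regions at epithelial junction genes, 12 of 96 (12.5%) were weakened, at CLDN1, CLDN7, CRB3, EPCAM, MARVELD3, OCLN, PERP, PPL, SPINT2 and ST14, and 14 were strengthened. Over all constitutive promoters, 16.1% were strengthened. Of the junction gene regions that overlapped a TSS, 8 of 42 (19.0%) were weakened, against 467 of 16744 (2.79%) of all constitutive promoters that overlapped a TSS. The median centred 72 h ratio was -0.14 in both lists, so most of their regions lay near the typical promoter. Of the 8 and 12 weakened regions, 4 and 8 held the E-box, against 32.2% of all weakened regions. At cell cycle genes 3 of 4 held it, at housekeeping genes 2 of 6 and at TGFβ pathway genes 0 of 5. These counts are small.

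Within the junction list, PPL and CRB3 had the lowest ratios after CLDN7. PPL, which encodes the plakin periplakin of desmosomes, was weakened over its canonical TSS, with AUCs of 4079, 4305, 3239 and 2054 and a ratio of -1.24, and in an intron 1263 bp away, with 2634, 2753, 1860 and 1200 and a ratio of -1.38. CRB3, a determinant of apical polarity, had 798, 819, 522 and 402 at its canonical TSS (-1.24). OCLN, a tight junction protein, had 2916, 3513, 2776 and 2135 at its canonical TSS (-0.70). In these 4 regions the AUC was higher at 6 h than in solvent and lower at 72 h than at 24 h. Of 34 keratin gene regions 3 were weakened (8.82%), at KRT8, at the canonical TSS of KRT15 (3138, 3731, 2352 and 2374, ratio -0.65) and 8116 bp from that of KRT80 (2090, 2539, 2256 and 1593, -0.64), and 8 were strengthened.

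Lists for the opposite programme were read in the same way. Of 89 regions at mesenchymal and matrix genes 2 (2.25%) were weakened, at COL4A2 and LOX, while 36 were strengthened, against 16.1% strengthened of all constitutive promoters, and the median centred ratio was 0.38. None of the 29 regions at EMT transcription factor genes was weakened and 4 were strengthened, numbers too small to be told from the shares over all promoters. Of 79 regions at TGFβ pathway genes 5 (6.33%) were weakened, among them SKI, a corepressor of SMADs (1580, 1585, 1588 and 834, ratio -1.17), SMAD1 (-0.82), TGFBR3 (-0.79) and BMPR2 (-0.69), and none of the 43 that overlapped a TSS was, which is near the 2.79% of all promoters over a TSS. SKI differed in course from most weakened regions, as its raw AUC was level up to 24 h. Its centred ratio was -0.44 at 6 h and -0.38 at 24 h.

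Inflammatory and sterol genes held weakened regions as well, most of them off the TSS. Of 53 regions at NF-κB and epithelial cytokine genes 7 (13.2%) were weakened and 5 strengthened, and the median centred 72 h ratio was 0.02. Of the 7, 5 held the E-box, against 32.2% of all weakened regions. The 7 included S100A8, an alarmin of stressed epithelium (1220, 1295, 986 and 490, ratio -1.56), and SAA1 (-0.74). NFKBIA, the inhibitor of NF-κB (-0.72), and LIF, a cytokine (-0.71), were also among the 7. Of the regions of this list that overlapped a TSS, 2 of 28 were weakened. Of 54 regions at sterol and lipid synthesis genes 5 (9.26%) were weakened and none was strengthened, among them SREBF1 (-1.01), FASN (-0.93) and ACACA (-0.85). Of the sterol regions that overlapped a TSS 1 of 31 was weakened.

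Housekeeping control genes gave a comparison for these shares. Of their 54 regions 6 (11.1%) were weakened, as large a share as in several lists above. The 6 included intronic and downstream regions of GAPDH (430, 480, 431 and 224, ratio -1.19; and 445, 245, 219 and 290, ratio -0.87) and regions beside EEF2 (-0.98) and C1orf43 (-0.75), and these 4 had solvent AUCs of 445 or less. Within 3 kb the share thus lay close to that of the epithelial lists, and at the TSS it was 0 of 35, near the 2.79% of all promoters over a TSS, against 8 of 42 in the junction list and 3 of 26 in the list of epithelial transcription factors. The counts of 0 over a TSS among 58 regions of cell cycle and DNA replication genes, 18 of MYC and arrest genes, 23 of glucocorticoid target genes and 44 of mitochondrial respiration and ribosome genes also lay near that share.

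In the remaining lists the share ran from 2.13% to 9.38%, against 4.87% of all constitutive promoters. The counts are too small to be told from that share. The highest was the 3 of 32 regions of MYC and arrest genes, and mitochondrial respiration and ribosome genes had 4 of 59. AP-1 genes had 2 of 27 (FOS and FOSB), p53 target genes 3 of 48, with PLK3 (-0.83), GDF15 (-0.76) and PLK2 (-0.62), and ERK feedback and EGFR ligand genes 4 of 74, with HBEGF (-0.96), SPRY1 and DUSP5 (-0.61). Glucocorticoid target genes had 3 of 48 with TSC22D3 at -1.27, interferon and antigen genes 4 of 66, C/EBP, KLF and ETS family genes 5 of 90, glycolysis and hypoxia genes 3 of 78 and cell cycle genes 4 of 91 with CDK4 at -1.15. Amino acid and unfolded protein response genes had 1 of 43, DDIT4, an inhibitor of mTORC1 signalling (5326, 4893, 3573 and 2971, ratio -1.09). NRF2 target genes had 1 of 47, FTH1, the ferritin heavy chain (7420, 6832, 5167 and 4538, ratio -0.96). DDIT4 and FTH1 were strong regions that were already below their solvent AUC at 6 h.

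Distal regions around the weakened promoters were compared last. Of the 1558, 1300 had at least 1 constitutive distal region within 50 kb, and the median centred 72 h ratio of these neighbours was below 0 in 848 (65.2%, interval 62.6 to 67.8), against 57.5% (56.8 to 58.1) for the other constitutive promoters and 49.4% for the strengthened. The median over the promoters of this neighbour value was -0.14, -0.07 and 0.01 in the same order. A distal solvent peak that had gone by 72 h lay within 50 kb of 14.5% of the weakened and 9.56% of the other promoters, and a distal peak new at 72 h lay near 52.6% and 55.3%. The weakened regions lay on all 23 chromosomes with peaks, in shares from 2.58% of the constitutive promoters of chromosome 18 to 6.82% on chromosome 20.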

How the data were processed

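ATAC-seq of MCF10A cells (8 samples, 4 groups, 2 replicates each) was deposited as 4 peak lists, 1 per condition. Per the study's methods and the submitters' processing notes, the authors used Trimmomatic 0.38 for trimming, Bowtie2 2.4.5 for mapping to GRCh38, Picard to drop duplicates and SAMtools 1.4.1 to keep nuclear pairs of MAPQ above 30, and called peaks with Genrich 0.5 on both replicates together. List names gave the condition. The deposited signal of a peak is the AUC given by the authors' caller, with a minimum of 200, and is not scaled between lists. It rises with depth and width. The deposited −log10 p-value belongs to the summit.

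Peaks were merged where they shared 1 bp and annotated with GENCODE 44 on hg38 (62700 genes). All peaks lay within the hg38 chromosome lengths. AUCs were summed per region and list, and each log2 ratio was centred on its median over the constitutive promoters, since no depth is known. Motifs were searched on both strands in hg38 around the summit of the largest solvent peak of a region. Shares have 95% Wilson intervals, and no significance test between conditions was run because each condition is 1 pooled list. Overlapping genes and copies of a gene family cannot be told apart by position. The software was pysam 0.24.0, samtools 1.23.1, matplotlib 3.10.9, scipy 1.17.1, pandas 2.3.3 and numpy 2.4.6 under Python 3.11.15. The selection was tested on simulated lists made from solvent peaks.

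The regions, gene lists and motifs were chosen with earlier results of these data known. By rule, the text names the 12 weakened regions over a protein-coding TSS with the lowest 72 h ratio, the 8 with the largest solvent AUC, weakened regions at listed genes (values for up to 4 per list, by lowest ratio, beside OCLN, which was taken after its values were seen), the 3 regions on each side of the threshold, and the 5 lowest and 5 highest 24 h to 6 h ratios over a protein-coding TSS. Some items that this rule names are not reported here. Alternatives changed the TSS set, the distance, the AUC measure, the minimum AUC, the centring, the threshold and the windows.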

Additional observations from a re-analysis of the deposited data

How the results depend on the processing

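No paired analysis was possible because each list pools both replicates, and for the same reason no replicate could be left out. The number of weakened regions, 1558, was 838 within 1 kb of a TSS, 358 over a TSS and 821 with an AUC of at least 400 in every list. Each of these subsets was centred on its own median. With the median of all constitutive promoters, 467 weakened regions lay over a TSS. The number was 2581 with the centre taken over all regions with 4 peaks and 739 without centring. It was 330 at a threshold of -1 and 2344 with centring within twentieths of mean AUC. Per base of peak width it was 1648, of which 685 were the same regions. The share at -0.5 or less by 6 h, 13.0%, was 8.66% over a TSS, 40.1% per base, 10.6% at the higher minimum AUC and 18.9% within twentieths, and that at 24 h, 44.3%, was 41.3% over a TSS and 51.3% within twentieths. The share with a 24 h to 6 h ratio below 0, 84.7%, was 87.7% over a TSS, 59.2% per base and 89.2% at the higher minimum.

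Motif shares are given as weakened minus other promoters, in percentage points. For the E-box, 13.9, the difference was 17.0 in the wider window. With the weakened regions chosen anew, an alternative added after the data were seen, it was 17.2 within 1 kb, 18 over a TSS, 7.86 per base, 16.9 at the higher minimum AUC and 11.6 with the wider centre. For C/EBP, 4.55, it was 3.22 with protein-coding TSSs, 2.93 over a TSS, 2.33 per base, 3.19 with the wider centre, 6.18 without centring and 7.55 at -1. For AP-1, -11.9, it was -15.7 within quartiles of solvent AUC, -9.66 with protein-coding TSSs, -7.8 within 1 kb, -4.65 over a TSS, -5.16 per base, -13.6 without centring and -13.4 at -1. No motif difference changed sign in these alternatives.

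With regions that overlap a TSS, the share of weakened regions was 0.0% in the lists of TGFβ pathway, cell cycle, MYC and arrest, glucocorticoid target, unfolded protein response, NRF2 target, mitochondrial and ribosome, and housekeeping genes, 3.23% in the sterol and 2.27% in the C/EBP, KLF and ETS list, all near the 2.79% of all constitutive promoters over a TSS. Per base, the centred ratio turned for OVOL2 (0.66), IRF7 (0.0), the downstream GAPDH region (0.26), the MRPL1 region near its TSS (0.85), ZNF608 (0.19) and PRPH (0.45). The cause was not tested. Read depth is unknown, which limits all comparisons between lists.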
